A study of Mus musculus with 6 samples.

Results

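The C-type lectin receptor genes were followed in brown adipose tissue (BAT) of cold-exposed mice, as all array features whose gene symbol begins with Clec and a digit or with Cd209. The rule took 39 of the 25206 features, and the rule reads symbols only. Clec2f and Clec2j also match it in the RefSeq annotation and are not analysed here. All 6 mice were FoxP3 DTR B6 females, in which the Foxp3 gene drives the receptor for diphtheria toxin, so that the receptor was carried by controls and treated mice alike. After 1 week in single cages at 22°C, 3 mice received diphtheria toxin (DT) and 3 received phosphate-buffered saline (PBS), intraperitoneally on 2 consecutive days. The first injection was followed by transfer to 4°C for all 6, and tissue was taken after 2 days of cold. The labels give no age. The toxin acts on Foxp3-expressing cells throughout the body and not only in BAT, and no mouse without the receptor was put on these arrays. Foxp3 itself was below the array median in every mouse, at 4.41 to 4.72 in PBS and 4.30 to 4.49 in DT with overlap, so it does not check the treatment on these arrays. Each mouse gave 1 array, named by the label's animal number (5, 9 and 16 for DT and 12, 18 and 20 for PBS), and values are log2 expression, so that a difference of 1 is a doubling.

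C-type lectins share a fold that in many members binds sugars in a calcium-dependent way, and the receptors among them sit mostly on myeloid cells and endothelium. Some signal through Fcer1g or Tyrobp, adaptors that recruit the kinase Syk and then the Card9, Bcl10 and Malt1 complex, some carry inhibitory motifs that recruit phosphatases, and others mainly take up their ligand. Members of the Clec4 and Cd209 groups bind mannose, galactose or glycolipid ligands, and the Clec1, Clec2, Clec7, Clec9 and Clec12 groups resemble natural killer (NK) cell receptors. The number in the symbol is used below as the lectin group number.

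Of the 39 genes, 3 passed the test between DT and PBS, which was limma's moderated test with p-values adjusted over the whole array (Benjamini-Hochberg, threshold 0.05). Clec4d and Clec12a were higher in DT and Cd209a was lower, by 0.70 to 0.75 on the log2 scale in size. The called share was 7.69% of the members beside 1.73% of all features (1.29% higher and 0.444% lower in DT). None of the 39 differed by 1 or more in either direction. The median difference was 0.06 over the members and -0.01 over all features, and 25 members had a value above 0 and 14 a value below 0. Of the 3 calls, only that of Clec4d was kept with each array left out in turn.

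The promoters of the 3 called genes and of Clec4e, which lies next to Clec4d, are shown because these neighbours had the same direction while Cd209a had the opposite one. Each run holds 250 bases before and 50 after the RefSeq transcription start, read 5′ to 3′ on the strand of the gene in GRCm38.p6. Capitals mark matches on either strand to GAGGAA (a core of PU.1 sites), TGANTCA (AP-1), TTGCNNAA (C/EBP), to the IRF pattern (interferon regulatory factors: GAAA, any 2 bases, GAAA) or the NF-kB pattern (GGGA, any 2 bases, TTCC). Clec4d lies at chr6:123261857-123262156 (plus strand), Clec4e at chr6:123289822-123290121 (minus strand), Clec12a at chr6:129349994-129350293 (plus strand) and Cd209a at chr8:3748935-3749234 (minus strand).
Clec4d: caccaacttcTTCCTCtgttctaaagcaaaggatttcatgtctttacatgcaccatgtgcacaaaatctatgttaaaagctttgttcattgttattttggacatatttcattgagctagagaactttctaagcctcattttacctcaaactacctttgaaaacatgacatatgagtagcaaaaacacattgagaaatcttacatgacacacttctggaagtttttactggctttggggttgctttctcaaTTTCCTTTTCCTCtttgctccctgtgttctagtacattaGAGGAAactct
Clec4e: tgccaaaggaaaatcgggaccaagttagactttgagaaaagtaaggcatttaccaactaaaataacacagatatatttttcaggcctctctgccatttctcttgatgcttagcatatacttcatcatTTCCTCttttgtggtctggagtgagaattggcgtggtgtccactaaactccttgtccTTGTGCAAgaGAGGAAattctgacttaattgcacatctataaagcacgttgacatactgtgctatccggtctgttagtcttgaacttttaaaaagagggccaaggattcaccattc
Clec12a: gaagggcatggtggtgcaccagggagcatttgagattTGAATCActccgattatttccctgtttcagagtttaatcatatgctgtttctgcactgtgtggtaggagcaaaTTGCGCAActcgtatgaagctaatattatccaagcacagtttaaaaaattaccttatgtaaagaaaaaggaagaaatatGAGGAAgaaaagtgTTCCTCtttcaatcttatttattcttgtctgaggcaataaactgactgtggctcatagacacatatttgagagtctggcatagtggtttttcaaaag
Cd209a: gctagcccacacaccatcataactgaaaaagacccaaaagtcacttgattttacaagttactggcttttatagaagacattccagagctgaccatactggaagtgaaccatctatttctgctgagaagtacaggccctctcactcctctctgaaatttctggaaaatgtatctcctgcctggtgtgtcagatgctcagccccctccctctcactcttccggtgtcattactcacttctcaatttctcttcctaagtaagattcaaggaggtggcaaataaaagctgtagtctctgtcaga

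The Clec4d window held 3 GAGGAA matches and 1 match to the IRF pattern, which overlapped one of them by 3 bases at the transcription start. The Clec4e window held 2 GAGGAA matches and 1 TTGCNNAA match, and the Clec12a window held 2 GAGGAA matches, 1 TTGCNNAA match and 1 TGANTCA match. The Cd209a window held none of the 5 patterns. Other members with lower values in DT did hold matches, with 1 GAGGAA match each for Cd209d (-0.91) and Clec14a (-0.45). Cd209g (-0.50) held 1 TGANTCA match, and Clec4g (-0.29) held none. The Clec4b1 window held 2 GAGGAA matches and 1 IRF match at a difference of 0.07. Any relation of matches to differences was not tested. A window was available for 33 members, 36 windows in all, since Clec2i, Clec4a3 and Clec7a had 2 overlapping windows each. Of the 36, GAGGAA was found in 17, TGANTCA in 8, TTGCNNAA in 7, the IRF pattern in 3 and the NF-kB pattern in 2. Among all 32851 windows of the same length the shares were 28.3% for GAGGAA, 7.81% for TGANTCA, 10.8% for TTGCNNAA, 3.44% for IRF and 1.47% for NF-kB. A match describes letters only and is not a measured binding site.

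The first question was which of the lectin genes gave a signal above the median of all features, which was 5.10 on every array. Brightness also depends on the probes, so a level is set here against that median and not against another gene. By the mean of the 6 arrays 12 members (30.8%) lay above the median and 27 below it, and 3 lay above the 75th percentile of 7.82. A total of 9 members were above the median on all 6 arrays, 24 were below it on all 6, and 6 crossed it. By group number, the mean lay above the median for 1 of 2 Clec1, 1 of 7 Clec2, 1 of 2 Clec3, 2 of 11 Clec4, 1 of 2 Clec12 and 3 of 7 Cd209 genes, and for the single Clec10, Clec14 and Clec16 genes. It lay below for the single Clec5, Clec7, Clec9, Clec11 and Clec18 genes.

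**Figure D1:**
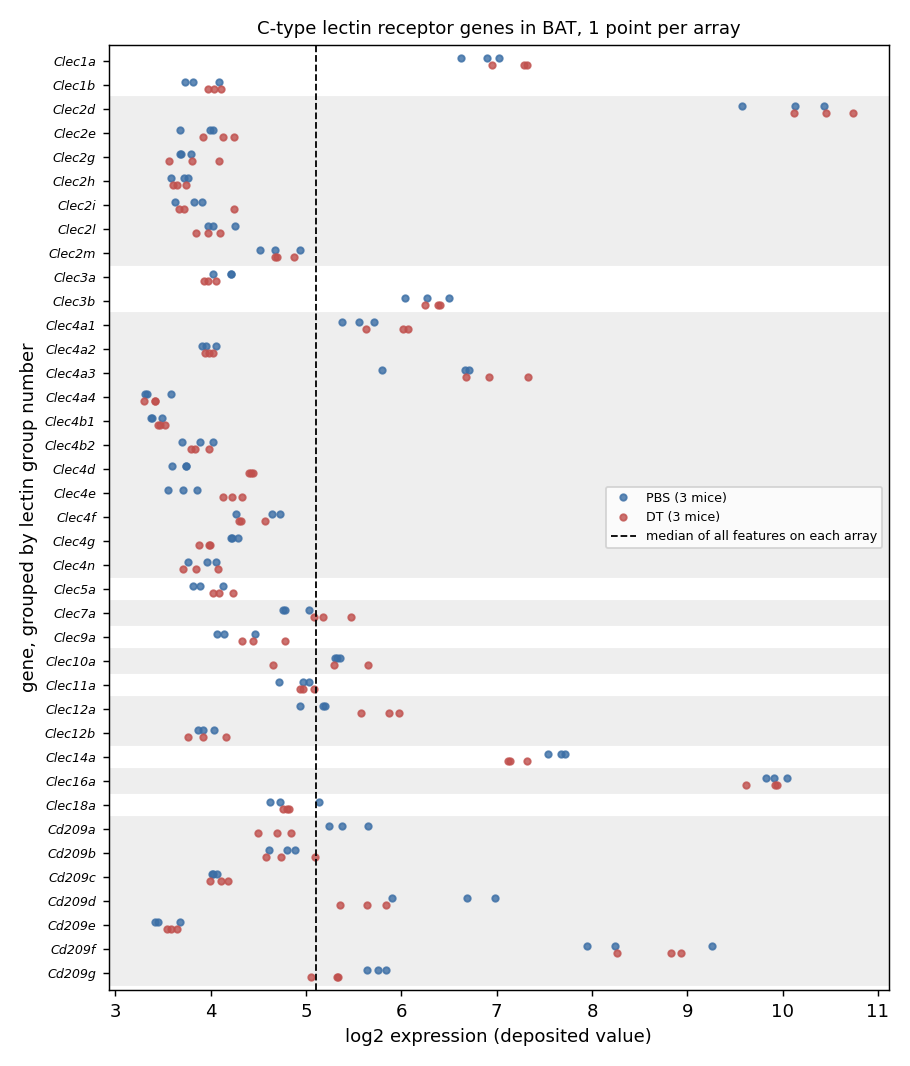
Deposited log2 expression (horizontal axis) of the 39 C-type lectin receptor genes, grouped by lectin group number, with 1 point per array for PBS (blue, 3 mice) and DT (red, 3 mice) and the median of all features (dashed). On every array 9 genes lie to the right of the line and 24 to its left, while 6 cross it.

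The 3 brightest features were Clec2d, Clec16a and Cd209f, and none of them passed the test. Clec2d, a cell surface ligand of inhibitory NK cell receptors, was at 10.13, 10.43 and 9.57 in PBS 12, PBS 18 and PBS 20 and at 10.74, 10.45 and 10.12 in DT 5, DT 9 and DT 16 (difference 0.39, 95% interval -0.16 to 0.95, adjusted p = 0.568 by limma). Clec16a, which despite its name is known for a role in endosome traffic and mitophagy, had a mean ± SD of 9.93 ± 0.11 over the 3 PBS mice and 9.83 ± 0.18 over the 3 DT mice (interval of the difference -0.36 to 0.16). Cd209f ranged from 7.95 in PBS 20 to 9.26 in PBS 18 and from 8.26 to 8.93 in DT, so the spread within PBS was wider than the difference of 0.19.

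Of the other members above the median on every array, Clec1a, a receptor of endothelial and myeloid cells, was at 6.63 to 7.02 in PBS and 6.95 to 7.32 in DT (difference 0.34, interval 0.01 to 0.66, adjusted p = 0.354 by limma). Clec3b, or tetranectin, a secreted protein that binds plasminogen, was at 6.27 ± 0.23 in PBS and 6.35 ± 0.08 in DT. The groups overlapped for both genes.

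Among the genes that crossed the median, Cd209a divided by treatment, as it lay above 5.10 on the 3 PBS arrays and below it on the 3 DT arrays. Clec12a lay above it on the 3 DT arrays and on 2 PBS arrays. Clec7a was above it on 2 DT arrays and no PBS array, Cd209g on 2 DT and 3 PBS arrays, Clec10a on 2 DT and 3 PBS arrays, and Clec18a on PBS 20 alone.

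The Clec4 group held the member with the smallest p. Clec4d, or MCL, is a receptor for mycobacterial glycolipid that signals through Fcer1g. It was at 3.59, 3.74 and 3.74 in PBS 12, PBS 18 and PBS 20 and at 4.40, 4.42 and 4.44 in DT 5, DT 9 and DT 16. The groups did not overlap, and the DT arrays lay within 0.04 of each other. The difference was 0.73 (SE 0.07, interval 0.55 to 0.90, 1.65-fold, n = 3, adjusted p = 0.00677 by limma). All 6 values were nonetheless below the array median, at the 28.9th percentile of features by mean, where differences can be compressed by background. With 1 array left out, the adjusted p of Clec4d was 0.0178 to 0.0405.

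Clec4e, or Mincle, binds the same class of glycolipid and a nuclear protein released by dying cells, and pairs with Clec4d. It was at 3.86, 3.55 and 3.71 in PBS 12, PBS 18 and PBS 20 and at 4.33, 4.22 and 4.13 in DT 5, DT 9 and DT 16. The DT arrays were again apart from the PBS arrays, with a difference of 0.52 (SE 0.10, interval 0.28 to 0.76), but the adjusted p was 0.0629 by limma. Letting the prior follow signal intensity, with robust estimation, brought it past the threshold (adjusted p = 0.0257 by limma). Clec4n, or Dectin-2, the next gene on the other side of Clec4d and another receptor that uses Fcer1g, was at 3.93 ± 0.15 in PBS and 3.88 ± 0.19 in DT (n = 3), with an interval of the difference from -0.34 to 0.23.

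The other Clec4 genes did not pass. Clec4a1 and Clec4a3, of the dendritic cell immunoreceptor family, were the Clec4 genes with a mean above the array median. Clec4a3 was at 6.67, 6.71 and 5.80 in PBS and at 7.33, 6.68 and 6.92 in DT (difference 0.59, interval -0.05 to 1.22, adjusted p = 0.423 by limma), with PBS 20 low. Clec4a1 was at 5.38 to 5.71 in PBS and 5.63 to 6.07 in DT (difference 0.35, adjusted p = 0.337 by limma). Clec4g, or LSECtin, known from sinusoidal endothelium, had lower values in DT without overlap, at 4.21 to 4.29 in PBS and 3.88 to 3.99 in DT (difference -0.29, adjusted p = 0.128 by limma). Clec4a2, Clec4a4, Clec4b1, Clec4b2 and Clec4f differed by no more than 0.15 in either direction.

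Clec12a, or MICL, is an inhibitory receptor of granulocytes and monocytes that recognises uric acid crystals and dead cells. It was at 5.20, 5.18 and 4.94 in PBS 12, PBS 18 and PBS 20 and at 5.98, 5.87 and 5.58 in DT 5, DT 9 and DT 16. All DT values were above all PBS values, with a difference of 0.70 (SE 0.13, interval 0.40 to 1.00, 1.63-fold, n = 3, adjusted p = 0.0472 by limma). Leaving out any single array ended the call (adjusted p = 0.0526 to 0.157 by limma), and the value stayed between 0.62 and 0.82 over all settings tried. Its neighbour Clec12b was at 3.94 ± 0.08 in PBS and 3.95 ± 0.21 in DT.

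The receptors of single-member groups varied in direction. Clec7a, or Dectin-1, which binds beta-glucan and signals through its own tyrosine motif, was at 5.03, 4.76 and 4.78 in PBS and 5.47, 5.08 and 5.18 in DT. The groups did not overlap but the gene did not pass (difference 0.39, SE 0.12, adjusted p = 0.237 by limma). Clec9a, which binds actin exposed by dead cells and marks cross-presenting dendritic cells, was at 4.22 ± 0.21 in PBS and 4.52 ± 0.23 in DT (adjusted p = 0.476 by limma). Clec5a, which pairs with Tyrobp, differed by 0.17 (interval -0.08 to 0.42). Clec10a, the galactose-type lectin of macrophages, was at 5.30 to 5.36 in PBS and at 5.65, 4.65 and 5.29 in DT 5, DT 9 and DT 16. DT 9 was low, and the difference of -0.13 became 0.14 without that array. Clec11a, a secreted growth factor, differed by 0.09 and Clec18a by -0.04.

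Clec14a, an endothelial surface protein that takes part in vessel growth, was lower in DT without overlap. It was at 7.67, 7.72 and 7.54 in PBS 12, PBS 18 and PBS 20 and at 7.32, 7.14 and 7.12 in DT 5, DT 9 and DT 16. The difference of -0.45 (SE 0.09, interval -0.66 to -0.24) missed the threshold (adjusted p = 0.0637 by limma), and it passed when features below the array median were left out (adjusted p = 0.0439 by limma). Of 9 endothelial marker genes 0 were called (2 at an unadjusted p under 0.05), all 9 had a mean above the array median, and their summed linear signal was 14185 to 15138 in PBS and 14150 to 14771 in DT. Groups did not overlap for 3 of the 9 (33.3%, beside 18.6% of all features). Kdr (-0.24) and Emcn (-0.27) had lower values in DT without overlap, as Clec14a did, and Esam (0.21) had higher values without overlap. The other 6 overlapped, among them Cdh5, the cadherin that defines endothelium, with a difference of 0.05. Mmrn2, the matrix partner of Clec14a, differed by 0.03. The part of endothelial content in the Clec14a values was not tested.

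The Cd209 group, whose human counterpart DC-SIGN binds mannose-rich and fucosylated glycans, held the called gene that was lower. Cd209a, found on dendritic cells and some macrophages, was at 5.65, 5.38 and 5.24 in PBS 12, PBS 18 and PBS 20 and at 4.69, 4.50 and 4.84 in DT 5, DT 9 and DT 16. No DT value reached a PBS value, and the difference was -0.75 (SE 0.13, interval -1.05 to -0.44, 1.68-fold lower, n = 3, adjusted p = 0.0441 by limma). Each of the 6 fits on 5 arrays lost the call (adjusted p = 0.076 to 0.139 by limma).

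Cd209d, or SIGNR3, had the widest difference of all members, at 6.69, 6.98 and 5.90 in PBS 12, PBS 18 and PBS 20 and 5.84, 5.36 and 5.64 in DT 5, DT 9 and DT 16. Its groups were separated by 0.06 only, and the difference of -0.91 (SE 0.27, interval -1.54 to -0.28) did not pass (adjusted p = 0.201 by limma). Without PBS 20, the lowest PBS array, it was -1.22 and passed (adjusted p = 0.048 by limma). Cd209g was at 5.84, 5.75 and 5.64 in PBS and 5.32, 5.34 and 5.05 in DT, again without overlap (difference -0.50, SE 0.11, adjusted p = 0.0765 by limma). Cd209b, or SIGNR1, a receptor of splenic marginal zone macrophages, differed by 0.04 (interval -0.29 to 0.38), Cd209c by 0.06 and Cd209e by 0.07. The 7 Cd209 genes therefore divided into 3 with lower values and no overlap and 4 whose groups overlapped. Probes of such closely related genes can bind each other's transcripts, and their part in these values was not tested.

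**Figure D2:**
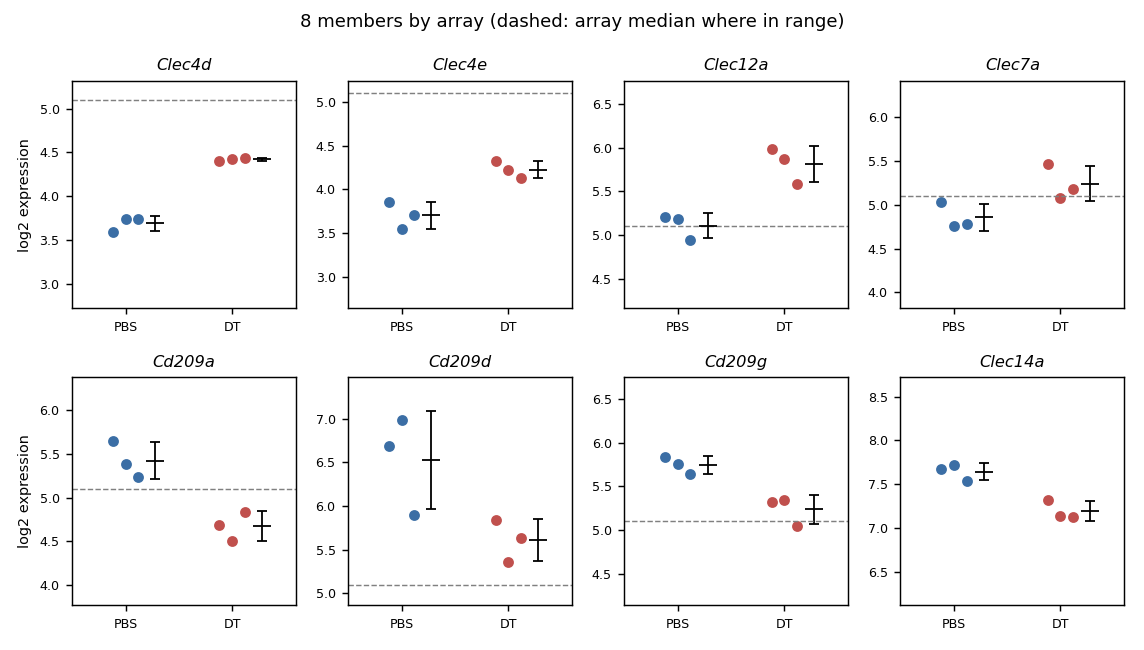
Log2 expression (vertical axis) of 8 lectin genes in PBS (blue) and DT (red), with 1 point per mouse, the mean ± SD of 3 mice beside them and the array median as a dashed line where it falls in range. The 8 genes are from the 9 of 39 members (23.1%, beside 18.6% of all features) whose groups do not overlap, without Clec4g. The absence of overlap in the panels follows from that choice, and the groups of Cd209d are separated by 0.06 only.

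Over all members, the 3 DT values lay apart from the 3 PBS values in 9 of 39 (23.1%), beside 18.6% of all features. Of the 9, Clec4d, Clec4e, Clec7a and Clec12a were higher and Clec4g, Clec14a, Cd209a, Cd209d and Cd209g lower. An exact permutation test of 1 gene over the 20 relabelings of 3 against 3 mice cannot go below p = 0.1, the value these 9 genes reached (2-sided), so that calls rest on the spread that limma pools over features. A total of 11 members (28.2%) had an unadjusted p under 0.05 in limma, beside 13.3% of all features.

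**Figure D3:**
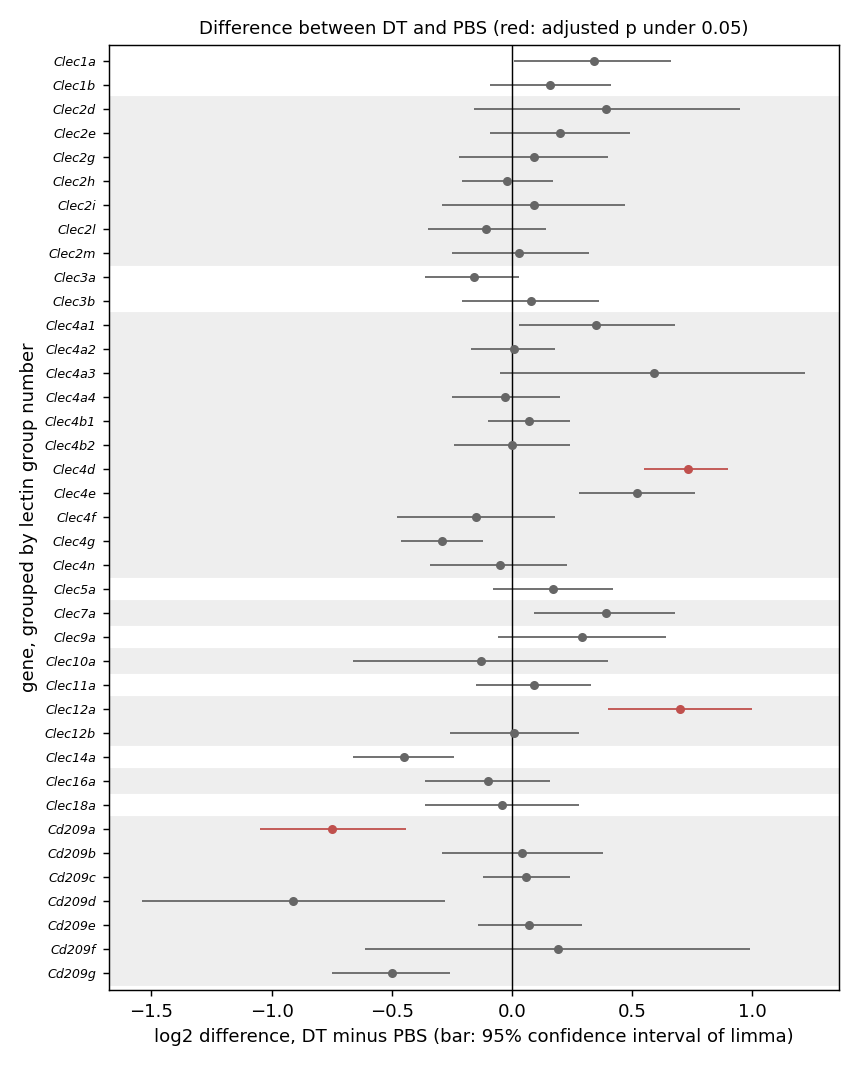
Log2 difference between DT and PBS (horizontal axis, 3 mice per group) for the 39 lectin genes by group number, with the 95% confidence interval from limma. Clec4d, Clec12a and Cd209a (red) passed an adjusted p of 0.05, and the intervals of most other genes cross 0.

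The remaining genes gave weak signals and small differences. Clec2e and Clec3a were at 3.90 and 4.15 in PBS and 4.10 and 3.98 in DT. A further 16 members, all with means between 3.39 and 4.78, differed by -0.15 to 0.16 (11 above 0 and 5 below 0, smallest adjusted p = 0.624 by limma), and all 16 had overlapping groups. They include Clec1b, the platelet receptor for podoplanin, at 3.88 ± 0.19 in PBS and 4.04 ± 0.07 in DT, and Clec2g, Clec2h, Clec2i, Clec2l and Clec2m. The half-width of their 95% intervals was 0.38 or less.

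What the rule did not use is the position of the genes. By the RefSeq gene order, 29 of the 39 lay in 3 runs of neighbours, 21 of them on chromosome 6 and 8 on chromosome 8. The first run on chromosome 6, from Clec4a1 to Clec4e, held 9 members with no other protein-coding gene between them. Its outer members Clec4a1, Clec4a3, Clec4d and Clec4e had differences of 0.35, 0.59, 0.73 and 0.52, while the 5 in the middle lay between -0.05 and 0.07. The second run, from Clec2h to Clec7a, held 12 members with NK receptor and other genes among them, of which 11 had a difference above 0 and Clec12a alone was called. The run on chromosome 8, from Clec4g through Cd209a to Cd209g, held 8 members, 4 with a difference above 0 and 4 below 0. The order is a description, and shared control of neighbours was not tested.

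**Figure D4:**
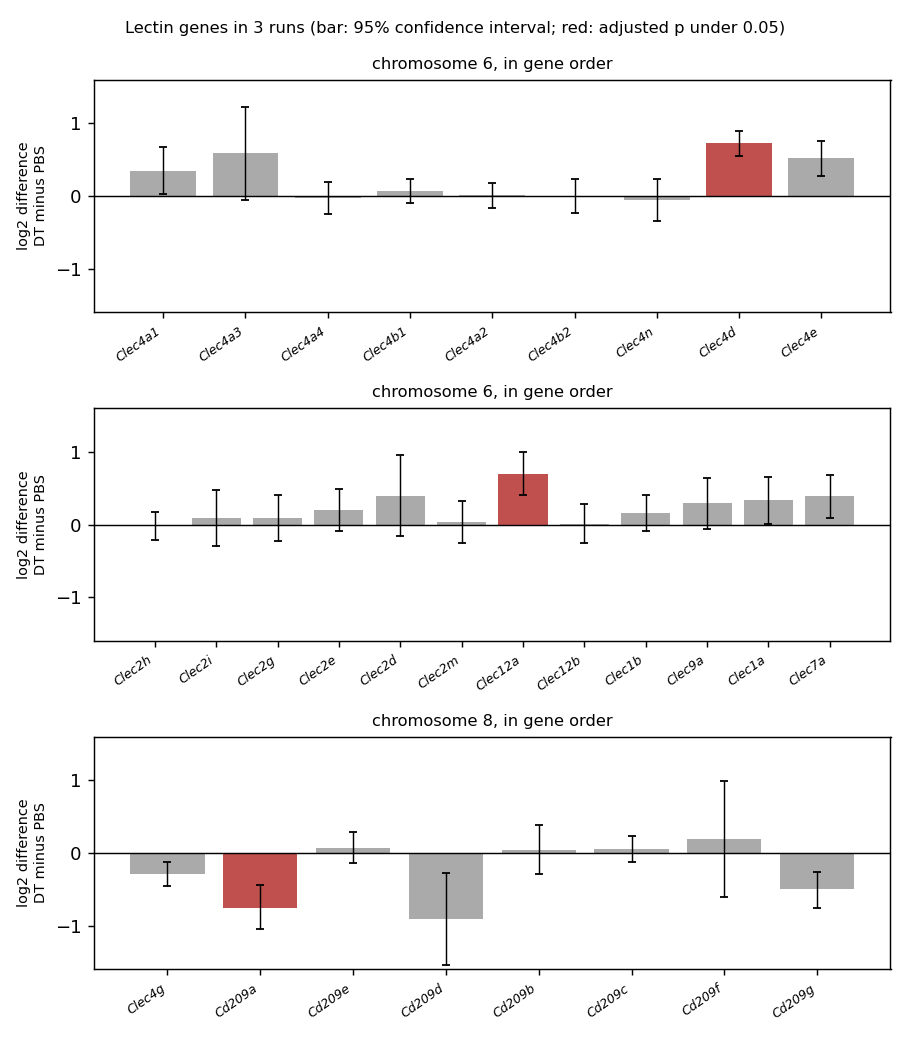
Log2 difference between DT and PBS (vertical axis, bars from 0 with 95% confidence intervals of limma, 3 mice per group) for the lectin genes of the 3 runs, drawn in chromosomal order and not to distance. Called genes are red. Clec4d and Clec4e stand at the end of the first run, Clec12a in the middle of the second, and Cd209a, Cd209d and Cd209g have bars below 0 in the third.

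The genes through which the receptors signal were followed as a list of 30 genes, of which 26 had a feature under that name. By limma 6 of the 26 (23.1%, beside 1.29% of all features) were called higher in DT and none lower. In either direction, 3.06% of features with a mean above the array median were called and 0.404% of those below it. Of the 26 genes only 4 had a mean below the median. Brightness bears in the same way on the lists that follow. Groups did not overlap for 13 (50% of the list, beside 18.6% of all features), and the list median was 0.25, against -0.01 for all features. The lowest difference of the list was that of Pik3r1, a regulatory subunit of PI3-kinase (difference -0.45, adjusted p = 0.306 by limma). Fcer1g, the adaptor of Clec4d, Clec4e and Clec4n, was at 7.90, 8.09 and 7.77 in PBS and 8.79, 8.88 and 8.71 in DT (difference 0.87, adjusted p = 0.0105 by limma). Tyrobp, the adaptor of Clec5a, was at 7.73 to 8.14 in PBS and 8.70 to 8.87 in DT (adjusted p = 0.0165 by limma). The adaptor Lcp2 (0.81), the phosphatase Inpp5d (0.56), the kinase Prkcd that phosphorylates Card9 (0.50) and, at a weak signal, the Src family kinase Fgr (0.49) were called too. Syk differed by 0.49 (adjusted p = 0.145 by limma), with groups that did not overlap. Card9, Bcl10 and Malt1 differed by -0.08, 0.04 and 0.08, all with overlap. The number of calls depended on single arrays, and was 2 without DT 5 or DT 16, 0 without DT 9 (14 at an unadjusted p under 0.05), 0 without PBS 12 (10 at an unadjusted p under 0.05), 3 without PBS 18 and 1 without PBS 20.

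**Figure D5:**
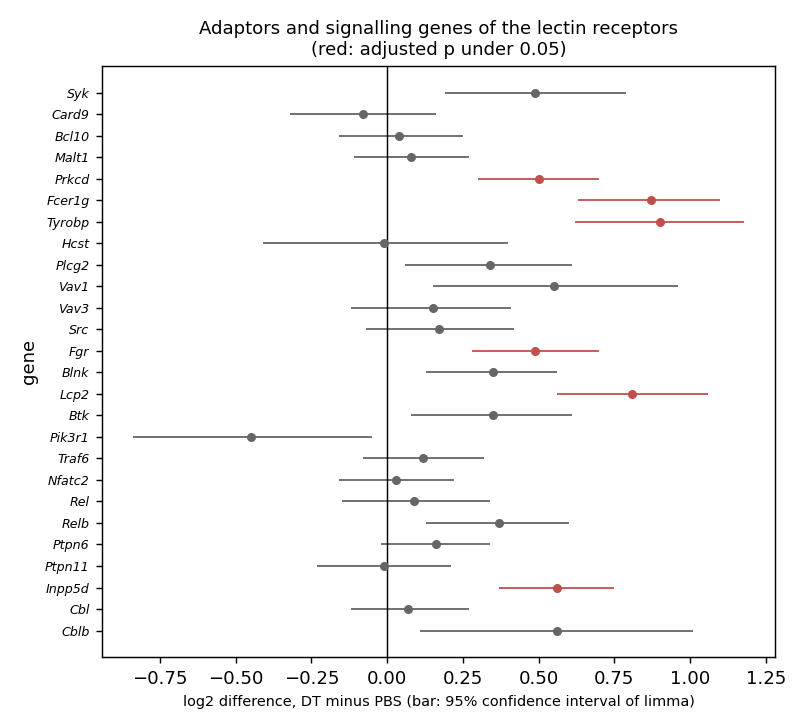
Log2 difference between DT and PBS (horizontal axis, 3 mice per group) with the 95% confidence interval of limma for 26 adaptor and signalling genes of the lectin receptors. The 6 called genes (red) all lie above 0, while Card9, Bcl10 and Malt1 lie near 0.

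Of 12 cytokine, chemokine and early response genes that such receptors induce, 2 were called higher (16.7%, beside 1.29% of all features). These were the transcription factor Egr2 (0.93) and the chemokine Cxcl2 (0.43, a weak signal). The mean of 11 of the 12 lay below the array median. No call of this list was kept without DT 9, DT 16, PBS 12 or PBS 20 (2 or 3 genes at an unadjusted p under 0.05), and Egr2 alone was kept without DT 5 or PBS 18. Of 38 other genes with the C-type lectin fold only the scavenger collectin Colec12 was called (0.63, adjusted p = 0.0276 by limma). That is 2.63% of the list, beside 1.29% of all features called higher. In limma 6 genes of the list had an unadjusted p under 0.05, a level reached by 13.3% of all features. Colec12 stayed called without PBS 18 and was not called when any of the other 5 arrays was left out. The mannose receptor Mrc1 was at 7.50 to 8.21 in PBS and 8.38 to 8.67 in DT without passing (adjusted p = 0.134 by limma), and Mgl2, the close relative and neighbour of Clec10a, differed by -0.13. Among 10 measured protein partners of the lectins, podoplanin (Pdpn), the ligand of Clec1b, was at 5.15, 5.32 and 5.44 in PBS and 6.49, 6.85 and 6.61 in DT (difference 1.34, adjusted p = 0.00406 by limma) and kept its call in limma with each array left out, though not without moderation. The protein-crosslinking enzyme Tgm2, listed among the partners, differed by 0.45 (adjusted p = 0.0415 by limma), a call lost with any 1 array left out. These 2 calls were 20% of the 10 genes listed as partners, beside 1.29% of all features. Binding of Tgm2 to a lectin was not tested.

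Markers of the cells that carry these receptors moved as follows, and their part in the lectin values was not tested. In whole tissue, a change in the number of cells of a type and a change of RNA per cell cannot be told apart. Of 13 measured macrophage markers 2 were called higher (15.4%, beside 1.29% of all features), Cd68 by 1.83 and Itgam by 1.73. In this list 11 had a difference above 0 and 2 below 0, and the list median was 0.18. Groups did not overlap for 5 of the 13 (38.5%, beside 18.6% of all features). Besides the called pair these were Fcgr1 (1.07), Adgre1 (0.59) and C1qb (0.48), all higher in DT. Csf1r (0.18), C1qc (0.17), Cd14 (0.03), C1qa (-0.03) and Cd163 (-0.21) overlapped between groups, and Timd4 was below the array median. The summed linear signal of the list was 2175 to 2799 in PBS and 3900 to 4153 in DT, but without Cd68, the gene that moved it most, 1829 to 2313 and 2436 to 2745. Of 9 monocyte markers 2 were called higher (22.2%, beside 1.29% of all features), Plac8 by 1.01 and Ms4a4c by 0.82. Among the 9, 7 had a difference above 0 and 2 below 0, and the median was 0.44. Groups did not overlap for 5 of them (55.6%, beside 18.6% of all features), with the called pair, Ly6c2 (0.58) and Nr4a1 higher in DT. Cx3cr1 had lower values in DT without overlap (difference -0.33, adjusted p = 0.11 by limma), Spn differed by -0.07, and Plac8, Spn, Ms4a4c and Chil3 were below the median. The monocyte sums were 928 to 1484 in PBS and 2111 to 3063 in DT, and 723 to 942 and 1007 to 1128 without Nr4a1, an early response gene that was not called (difference 1.91, adjusted p = 0.0655 by limma). Of 14 dendritic cell markers 0 were called by limma (4 at an unadjusted p under 0.05), with sums of 1446 to 2022 in PBS and 1375 to 1896 in DT. Groups did not overlap for 4 of the 14 (28.6%, beside 18.6% of all features). Bst2 (0.85), Itgax (0.41) and Batf3 (0.25) were higher in DT and Ciita (-0.27) was lower. The defining markers Flt3, Xcr1, Itgax, Batf3 and Siglech were below the median, whereas Zbtb46 was above it on all 6 arrays and differed by 0.04. Of 12 neutrophil markers 0 were called (2 at an unadjusted p under 0.05), 11 were below the median, and sums were 236 to 249 in PBS and 249 to 293 in DT. The smallest p of this list in limma belonged to Csf3r (0.57, without overlap) and Mmp8 (0.24, with overlap). Of 5 lymphatic and sinusoidal endothelial markers Lyve1 (1.68) and Pdpn were called higher (40%, beside 1.29% of all features). Flt4 (-0.11), Prox1 (-0.08) and Stab2 (0.10) overlapped, and the latter pair was below the median. The sums of the 5 were 329 to 424 in PBS and 700 to 995 in DT, and 188 to 203 and 237 to 259 without Lyve1.

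None of 9 NK cell (2 at an unadjusted p under 0.05), 6 B cell (1), 7 T cell (1), 7 platelet (2), 4 hepatocyte (1), 6 Treg (0) or 9 brown adipocyte (2) markers was called by limma. The 2 with the smallest p in limma were Bank1 (-0.33) and Pax5 (-0.19) for B cells and Cd4 (-0.30) and Cd28 (0.32) for T cells. They were Pf4 (0.60) and Gp1bb (0.34) for platelets and Cyp2e1 (0.93) and Apoa1 (-0.56) for hepatocytes. Foxp3 (-0.16) and Ikzf2 (-0.21) were the Treg pair, and Dio2 (0.40) and Prdm16 (-0.26) the brown adipocyte pair. A linear model without moderation called 0 genes of every list above, so that the calls among signalling genes, cytokines, Colec12, Pdpn, Tgm2 and the macrophage, monocyte and lymphatic markers were all lost in it. At an unadjusted p under 0.05 that model held 11 signalling genes, 2 cytokines, 7 other lectin fold genes and 3 partners. The share of all features that it called is not given here, so the loss cannot be called particular to these lists. All 9 brown adipocyte markers were above the median, with Ucp1 at a mean of 14.01 in PBS, as the tissue label says. Summed signals of NK cell markers did not overlap (214 to 230 in PBS and 234 to 286 in DT). Without Nkg7, the gene that moved them most, they did overlap (179 to 189 and 187 to 213). Nkg7 (0.59) and Il2rb (0.55) were apart between groups (22.2% of the list, beside 18.6% of all features). In this list 7 of the 9 genes were below the median. Sums overlapped for T cell (315 to 377 and 213 to 388), B cell (153 to 171 and 124 to 154) and brown adipocyte markers (58250 to 60709 and 59410 to 63379). By single gene, groups did not overlap for 4 of 9 brown adipocyte markers (44.4%, beside 18.6% of all features). Dio2 was higher in DT, and Cidea (-0.09), Prdm16 and Cox7a1 (-0.04) were lower. For B cells they were apart in 2 of 6 (33.3%), Bank1 and Pax5, both lower in DT. Correlations between arrays, taken across genes, ranged from 0.9935 to 0.9944 for mice of 1 group and from 0.9895 to 0.9934 for mice of different groups.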

How the data were processed

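Total RNA of BAT was hybridised to Affymetrix arrays, 1 per mouse. The authors deposited log2 expression for each Entrez gene, obtained by grouping probes with a custom chip definition file (version 14). RMA is named in the submitters' processing notes and quantile normalization in the methods. Sorted values were the same in 5 arrays and within 0.00179 in DT 5, so a shift of all genes cannot be seen. For the files the build is not given in the sources used here. Coordinates are therefore printed for promoters alone. The number of arrays limits precision. Each limma p-value sets the difference between groups against a spread between mice that is partly pooled over features. For the cold temperature the labels were followed, since the methods name a less severe one.

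Genes were named by the platform annotation (23185 features with 1 symbol, 2021 with none). DT was compared with PBS by limma 3.58.1 in R 4.3.3 (lmFit, eBayes, 2-sided, Benjamini-Hochberg over 25206 features, threshold 0.05), tested on simulated data first. The groups share no animal number and the labels give no batch, so no block was used. Means are given ± SD with n = 3, and "called" means past the threshold. Summed signals are sums of 2 to the power of the log2 value. Promoter sequences came from RefSeq (GRCm38.p6), matched by symbol. Exact permutation tests used scipy 1.17.1.

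The rule for members uses symbols and no measured value, but this gene family and the lists were chosen with earlier results of these data known. Values are given for members called or above the array median by mean, for the 6 next by p and for the brightest of each group number, with up to 4 called genes per list, or the 2 with the smallest p. Others are named for their position, their role as partners, adaptors or cell markers, or to place members just outside these limits, and were chosen after values were seen.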

Additional observations from a re-analysis of the deposited data

How the results depend on the processing

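Shares over all features are given for the main fit only. A call lost or gained below is therefore not known to be particular to these genes. Without moderation 0 of the 39 lectin genes were called (7 at an unadjusted p under 0.05). With the 2-fold criterion at an unadjusted p under 0.01 the count was 0 (11 at an unadjusted p under 0.05 in limma). It was 6 at an adjusted p under 0.1, where Clec4e, Clec14a and Cd209g joined. With 1 array left out it was 1 to 2, Clec4d in each case and Cd209d as well without PBS 20. Leaving out features below the median gave 2, Clec12a and Clec14a, since Clec4d and Cd209a were then not tested. Array weights also gave 2, without Clec12a, and an intensity trend with a robust prior gave 4. Repeated quantile normalization, median centring, cyclic loess and leaving out the lowest 25% of features called the same 3 genes. With the array's 75th percentile as the level 3 members lay above it by mean, against 12 for the median, 8 for the array mean and 12 to 13 with 1 array left out.

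Of 589 values of single members under alternatives, 26 from 16 members changed sign, and the largest of these differences was 0.19 in size with all arrays. Among the members described one by one, the difference with 1 array left out ran from -0.0377 (without PBS 20) to 0.19 for Clec3b, from -0.144 to 0.12 (without PBS 20) for Clec18a and from -0.0777 (without PBS 20) to 0.578 for Cd209f. It ran from -0.355 to 0.142 (without DT 9) for Clec10a, from -0.00526 (without PBS 12) to 0.15 for Clec11a and from -0.154 to 0.00553 (without DT 5) for Clec16a. None of these was called. The settings for single members and for the gene lists were chosen after seeing the data. Many members gave weak signals, as 24 of 39, Clec4d among them, were below the median of every array. What the weak signal meant for the calls was not tested.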
